A study of Mus musculus with 24 samples.

Results

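The cytosolic ribosomal protein genes encode the protein parts of the ribosome, the machine that translates messenger RNA. Members were chosen by symbol alone: every gene whose symbol begins with Rpl or Rps and a digit, with Rplp0 to Rplp2, or with Rpsa, leaving out the S6 kinases (Rps6k) and symbols that carry -ps for a pseudogene. The rule found 87 genes of 21960 in the table, 53 named for the large and 34 for the small subunit. Of these, 77 encode standard ribosomal proteins (46 large, 31 small) and 8 are paralogs of one. The remaining 2 are Rps19bp1, which encodes a protein that binds Rps19, and Rpl6l, which GENCODE M21 annotates as a processed pseudogene. The 87 genes lie on 19 chromosomes, with 14 on chromosome 7, and 86 had at least 1 count.

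RNA from extracellular vesicles, the membrane-bound particles that cells shed into blood, was sequenced in plasma of C57BL/6J mice, all of them male; the strain is a common inbred one. The 4 groups of 6 animals were sham surgery at day 8, bile duct ligation (BDL) at day 8, sham surgery at day 15 and bile duct ligation at day 15, with 1 library per animal. Age is not given in the labels. Ligation blocks bile flow and serves as a model of cholestasis and of the scarring of the liver that comes after it. Vesicles were precipitated from plasma with ExoQuick, and libraries were made with a stranded kit without removal of ribosomal RNA and without selection of poly(A) RNA. The tissue label of all samples reads liver, whereas the protocol describes plasma vesicles, and the counts carried few liver transcripts in sham animals: 20 hepatocyte markers together took 0.0107% ± 0.00445 of the counts at day 8 (SD, n = 6). In such bulk RNA, fewer vesicles from a cell type and less RNA in each of them cannot be told apart.

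A ribosome has a small subunit that reads the messenger RNA and a large subunit that joins amino acids. Each subunit carries one copy of most of its proteins, so cells make them in matched amounts. Their messenger RNAs are among the most abundant in nearly every cell, blood cells included. In mammals most of these messengers begin with a cytosine followed by a run of pyrimidines, the terminal oligopyrimidine (TOP) tract, through which mTOR signalling and the binding protein Larp1 set their translation.

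The tract could be looked for around the transcription starts of the 66 members found in RefSeq's promoter table (GRCm38.p6). In 14 of the 66 (21.2%) the annotated start was a cytosine followed by at least 4 further cytosines or thymines, against 3.01% of all 27025 genes in that table. The share was 17.5% of 40 large and 26.9% of 26 small subunit members. The 8 windows that follow run from 10 bases before the annotated start to 20 from it, and show what the run looks like in members of both subunits. Capitals mark the pyrimidine run at the start, and the last 2, Rplp0 and Rpsa, had no such run at the start that the table gives.
Rps6 (chr4:86857348-86857377, minus strand): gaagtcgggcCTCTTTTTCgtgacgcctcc
Rps27 (chr3:90213629-90213658, minus strand): cgctttcgctCCTTTCCggcggtgacgacc
Rps18 (chr17:33955646-33955675, minus strand): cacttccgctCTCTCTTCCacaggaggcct
Rplp2 (chr7:141447641-141447670, plus strand): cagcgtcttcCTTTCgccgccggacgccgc
Rpl15 (chr14:18270967-18270996, minus strand): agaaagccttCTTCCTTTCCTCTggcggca
Rpl14 (chr9:120571507-120571536, plus strand): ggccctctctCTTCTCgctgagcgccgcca
Rplp0 (chr5:115559457-115559486, plus strand): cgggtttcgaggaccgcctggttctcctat
Rpsa (chr9:120127756-120127785, plus strand): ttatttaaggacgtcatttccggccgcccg

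A start annotated a few bases away from the one used would hide a run, so the letters CTTTC were also searched on the forward strand from 15 bases before to 35 after the start. They were present in 33.3% of the members and 7.28% of all genes in the table. In the whole 300-base window, on either strand, CCGGAAG was present in 39.4% of the members against 9.93% of all genes, and GGGCGG in 62.1% against 38.2%. TATAAA between 40 and 15 bases before the start was present in 1.52% of the members and 2.41% of all genes. These are matches of letters and not measured binding sites, and some motifs can overlap.

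Total counts ran from 101733 to 937963 per library. Counts assigned to Lars2, a mitochondrial tRNA synthetase gene, took 47.1% ± 4.19 of the total (SD, n = 24) and hemoglobin genes 7.82% ± 2.80. The third ligated library of day 8 stood apart, with 31.6% of its counts on Lars2 and the lowest scaling factor of all (0.667), so shares at day 8 are also given without it. At day 8, libraries numbered 4 to 6 were deeper in both groups than those numbered 1 to 3. The labels do not tie these numbers to a batch.

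Members took between 3.97% and 6.89% of the counts in the 24 libraries, 506422 counts in all, of which 55.8% fell on large subunit genes. The 10 members with the most counts held 23.4% of the members' total. Per kilobase of transcript the standard members lay close together: between the first and the third quartile of 77 genes the level differed 1.80-fold, against 3.81-fold over all tested genes. Their median was 918 CPM (counts per 1000000 counts of the library) per kilobase, 790 for the large and 999 for the small subunit, whereas the median of all tested genes was 13.8. Rps27 stood first at 3140 CPM per kilobase, followed by Rplp1 (2175) and Rps29 (2058). At the low end of the standard members were Rpl27 (107), Rps15a (113) and Rpl5 (130). The Rps15a transcript used is 5130 bases long, and the choice of transcript sets such values in part.

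The paralogs were low. On the same scale Rpl36al reached 176 CPM per kilobase, Rpl22l1 64.5, Rps27l 56.1, Rps27rt 42.6 and Rpl7l1 16.5. Rpl3l, a muscle form of Rpl3, had 13 counts over all 24 libraries, Rpl39l had 1 and the testis gene Rpl10l had 0, which allows up to 3 counts over all libraries. These genes resemble their partners closely, and the sources do not say how the counting divided the reads they share. Copies of ribosomal protein genes are a further source of shared reads: 14 rows with -ps symbols held 0.0440% of all counts. Rpl27-ps3 had 1940 counts where Rpl27 itself had 619, so the level of Rpl27 is uncertain.

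**Figure D1:**
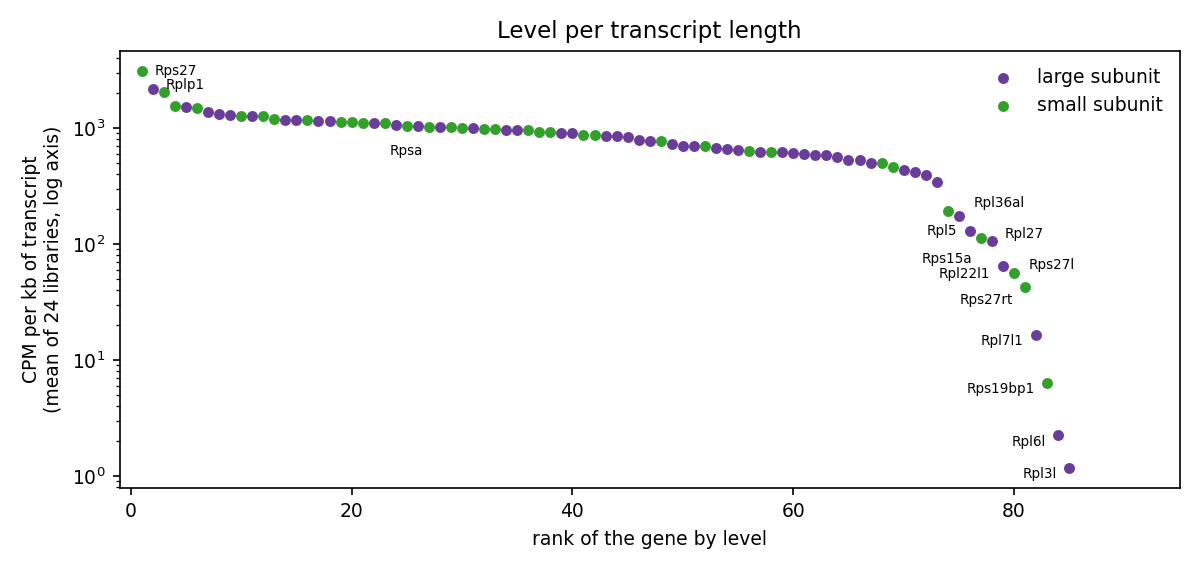
Mean level of the 85 members with at least 10 counts, in CPM per kilobase of transcript on a log axis, against their rank; purple points are large and green points small subunit genes. Most standard members lie between 341 and 2175 CPM per kilobase, and the paralogs, Rps19bp1 and Rpl6l lie at the low end. There the paralog Rpl36al (176) ranks above the standard members Rpl5 (130), Rps15a (113) and Rpl27 (107).

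The first comparison asks whether the ribosomal protein RNA of plasma vesicles differs between ligated and sham animals at day 8. Members took 5.22% to 6.48% of the counts in the 6 sham libraries (median 5.91%) and 3.97% to 5.18% in the 6 ligated libraries (median 4.56%). Every ligated library thus lay below every sham library. The group means were 5.94% ± 0.480 and 4.58% ± 0.403 (SD, n = 6 each), a difference of -1.37 percentage points. Without the third ligated library the difference was -1.25 points. The exact binomial interval of a single library's share was narrow beside the spread between animals: for the shallowest library, with 101733 counts, 5.99% had a 95% interval of 5.85% to 6.14%. The intervals of the closest libraries of the groups overlapped, so counting error alone could undo their order. They were 5.08% to 5.29% for the first ligated library (5.18%) and 5.17% to 5.27% for the sixth sham library (5.22%).

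Large and small subunit genes shared in this difference. Large subunit genes took 3.32% ± 0.260 of the counts in sham and 2.56% ± 0.214 in ligated libraries, with no overlap. Small subunit genes took 2.63% ± 0.222 and 2.02% ± 0.191, and here the highest ligated library (2.294%) passed the lowest sham library (2.286%). Without the third ligated library the ligated means were 2.62% and 2.08%, and the small subunit groups overlapped as before. The ratio of large to small subunit counts was 1.26 ± 0.0232 after sham surgery and 1.27 ± 0.0276 after ligation, with ranges of 1.24 to 1.30 and 1.21 to 1.29. Over all 24 libraries it ran only from 1.21 to 1.30.

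**Figure D2:**
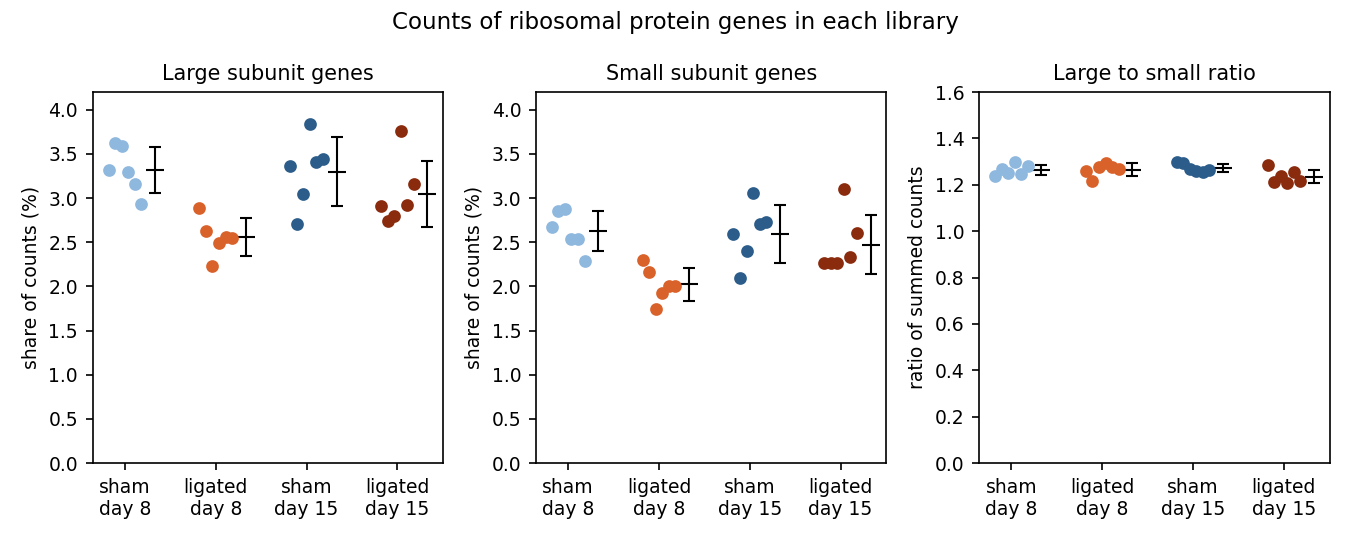
Share of counts on large subunit genes (left) and small subunit genes (middle), in percent, and the ratio of their summed counts (right), in each of 24 libraries; points are libraries and black marks the mean ± SD of 6. At day 8 the ligated libraries lie low in both subunits (means 2.56% and 2.02%, sham 3.32% and 2.63%), while the ratio stays between 1.21 and 1.30.

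The share depends on what else is in the library. At day 8 hemoglobin genes took 6.79% ± 0.926 of sham and 10.7% ± 3.30 of ligated counts, with overlap, and Lars2 took 48.1% ± 2.14 and 43.5% ± 6.10. Without the third ligated library the ligated means were 11.3% for hemoglobin, which then no longer overlapped, and 45.9% for Lars2, whose difference shrank from -4.56 to -2.18 points. With Lars2 left out of the total, members took 11.5% ± 1.30 of what remained in sham and 8.22% ± 1.40 in ligated libraries, and the groups overlapped. With the hemoglobin genes left out as well, they took 13.2% ± 1.38 and 10.4% ± 2.50, again with overlap. Without the third ligated library the ligated means were 8.71% and 11.1%, and the overlaps stayed. Libraries of the same number deviated together at day 8 and were also compared number by number, a comparison chosen after seeing the data. The labels state no pairing, and correlations between libraries of different number were not computed. The ligated library had the lower share in 6 of 6 numbers without Lars2, and without Lars2 and hemoglobin (differences of -8.53 to -0.220 points in the last). It was also lower in 6 of 6 for the small subunit on the full total. For all members and for the large subunit the groups did not overlap on the full total, so 6 of 6 was fixed in advance there. For the small subunit, and for all members without Lars2, only the first ligated library passed a sham library, the sixth. Any matching that did not set these against each other would also have given 6 of 6. At day 15 the ligated library had the lower members' share in 5 of 6 numbers on the full total. The same held without Lars2, and without Lars2 and hemoglobin. Among libraries numbered 1 to 3 the members' mean shares were 6.31% in sham and 4.65% in ligated animals. Among those numbered 4 to 6 they were 5.58% and 4.51%. Of 14 erythroid markers in the table, which include 4 hemoglobin genes, 13 had a count and 11 were tested. Of all 4112 tested genes edgeR called 114 higher and 15 lower, and of these markers 8 higher and none lower. Their summed share ran from 5.68% to 8.20% in sham and from 7.75% to 16.2% in ligated libraries, or from 8.33% without the third. The part of these transcripts in the members' lower share was not tested.

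**Figure D3:**
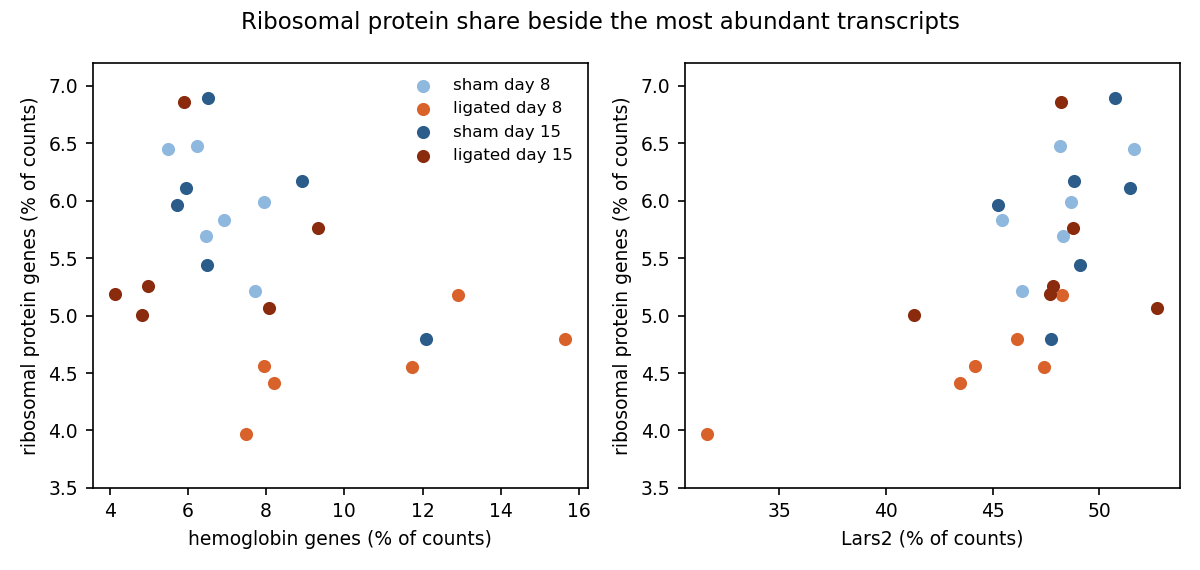
Share of counts on the 87 ribosomal protein genes in each of 24 libraries, in percent, against the share on hemoglobin genes (left) and on Lars2 (right), coloured by group. The 6 ligated libraries of day 8 lie between 3.97% and 5.18% on the vertical axis, and the one with 31.6% of counts on Lars2 is the lowest.

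Single members followed the share when levels were set against the library total. Of the 81 members tested, 25 had every ligated library below every sham library at day 8 (30.9%), against 2.68% of all 4112 tested genes; 16 of the 25 were large and 9 small subunit genes. Leaving out a library can only keep or raise this count, so the refits are no check on it. It was 25 without the third ligated library and 34 without the sixth sham library. The matching shares of all tested genes were not computed, so these counts have no background to be read against. No member lay wholly above. These members share their libraries and their denominators and are not separate observations. Members also have higher counts than most tested genes, and the comparison with all tested genes was not adjusted for that.

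Rplp0, the stalk protein that recruits elongation factors to the large subunit, is one of them. Its level was 1522 to 1703 CPM after sham surgery (median 1644) and 1039 to 1471 CPM after ligation (median 1388). Rpsa, a small subunit protein that also serves as a laminin receptor, had 1592 to 2178 CPM after sham surgery (median 1761) and 1151 to 1543 CPM after ligation (median 1469). Both genes had their lowest value in the third ligated library, and the other ligated libraries also lay below all sham libraries. Rps27, a zinc-finger protein of the small subunit, had 1090 to 1359 CPM after sham surgery (median 1244) and 798 to 982 CPM after ligation (median 891).

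Rpl10a, a protein of the large subunit near the exit site for transfer RNA, had the lowest fold change of the day. Its level was 399 to 659 CPM after sham surgery (median 543) and 286 to 383 CPM after ligation (median 366). Rps15, which lies near the decoding site, had 736 to 974 CPM after sham surgery (median 899) and 487 to 633 CPM after ligation (median 593). In both genes the groups were apart on this scale.

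A different picture came from the test that scales libraries by TMM, which sets the bulk of genes near no change. The TMM factors themselves differed, 1.11 ± 0.0516 in sham and 0.898 ± 0.130 in ligated libraries at day 8, without overlap. On this scale edgeR called 0 of 81 members at day 8, where it called 3.14% of all tested genes. At an unadjusted p under 0.05 there were 2 members, both lower, while 4.6% of all tested genes were lower at that level. DESeq2 also called 0 members, and 4.52% of all tested genes. The smallest adjusted p of a member was 0.244, for Rpl10a (log2 fold change -0.33, SE 0.14, edgeR). Rps15 stood at -0.30 (SE 0.13, edgeR adjusted p = 0.286).

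The members' median log2 fold change was -0.08 at day 8, with 60 of 81 below 0, beside a median of 0.02 for all tested genes. It was -0.08 in each subunit, over 49 large and 32 small subunit genes. With libraries scaled by their totals alone, an alternative chosen after seeing the data, the median of all tested genes shifted to -0.25 and that of the members to -0.40. On both scales the members' median thus lay below that of all genes. A change of scaling shifts the fold changes of all genes by nearly the same amount, so the second scale is no separate check of this order. Under that scaling edgeR called 6 members lower (Rpl6, Rpl10a, Rpl13, Rpl15 and Rps15 among them), while 1.87% of all tested genes were called lower. On TMM-scaled CPM, 0 of 81 members had all ligated libraries below all sham libraries, as against 0.316% of all tested genes.

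**Figure D4:**
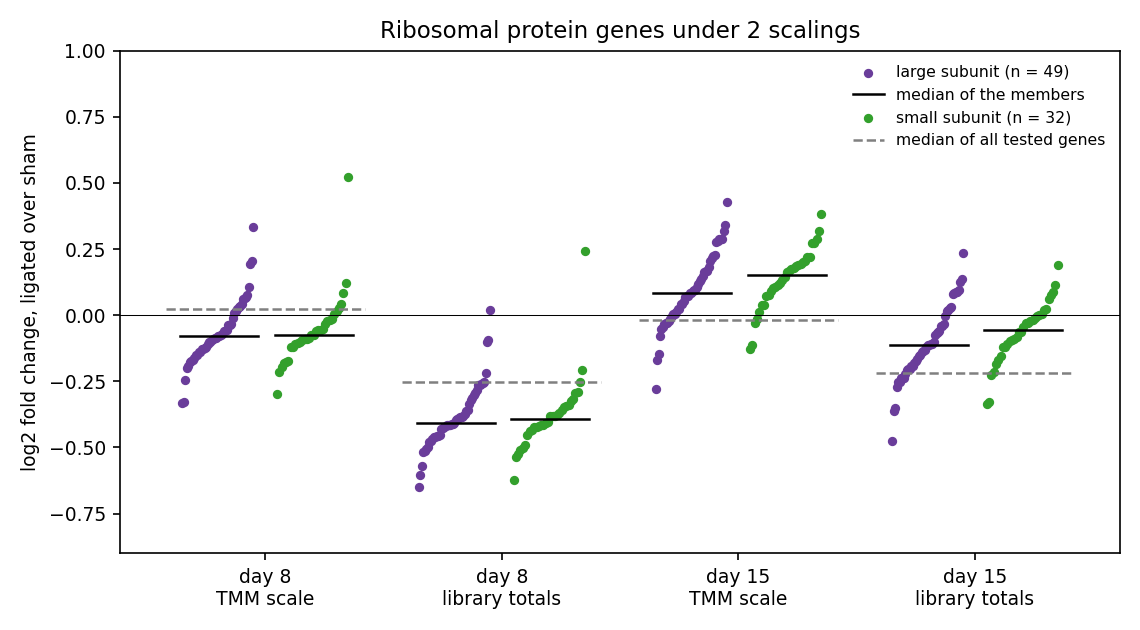
Log2 fold change of ligated over sham libraries for 49 large (purple) and 32 small subunit genes (green), at day 8 and day 15, with TMM scaling and with library totals; black lines are medians of the members and dashed lines the median of all 4112 tested genes. At day 8 the members' median lies below the dashed line under both scalings (-0.08 and -0.40), and at day 15 above it (0.11 and -0.09). Single genes lie on both sides of the line.

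At day 15 the shares of the groups overlapped. Members took 4.79% to 6.89% of the counts in sham (median 6.04%) and 5.01% to 6.86% in ligated libraries (median 5.22%). The means were 5.90% ± 0.713 and 5.52% ± 0.706, a difference of -0.374 points that is smaller than the spread within either group. The highest ligated library was number 4 (6.86%), and without it the difference was -0.641 points; without sham library 4 (6.89%) it was -0.175 points. Large subunit genes took 3.30% ± 0.388 and 3.05% ± 0.373, small subunit genes 2.60% ± 0.326 and 2.47% ± 0.335. The large to small ratio was 1.27 ± 0.0176 after sham surgery and 1.24 ± 0.0295 after ligation, a difference of -0.0369 with overlapping ranges. Hemoglobin genes took 7.61% ± 2.47 after sham surgery and 6.21% ± 2.05 after ligation.

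The test at day 15 called 0 of 81 members with edgeR (4.55% of all tested genes) and 0 with DESeq2 (5.2% of all tested genes). At an unadjusted p under 0.05 there were 3 higher members and no lower one: Rpl14 (log2 fold change 0.34, SE 0.14), Rps27a (0.32, SE 0.13) and Rps6 (0.29, SE 0.14), with edgeR adjusted p values of 0.154, 0.160 and 0.276. Of all tested genes 9.0% were higher at that level. The members' median was 0.11, with 65 of 81 above 0, beside -0.02 for all tested genes. It was 0.08 for the large and 0.15 for the small subunit. With library totals the members' median turned to -0.09, and that of all tested genes was -0.22.

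Rpl14, a protein on the outer surface of the large subunit, had 455 to 606 CPM after sham surgery at day 15 (median 531) and 529 to 618 CPM after ligation (median 582). Rps6, the small subunit protein that S6 kinases phosphorylate and whose start window carries a run of 9 pyrimidines, had 776 to 1207 CPM (median 1084) and 965 to 1314 CPM (median 1074). In both genes the ranges overlapped. At day 8 the same fold changes were 0.08 for each (SE 0.14, edgeR adjusted p = 0.863 and 0.855).

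Among the extremes of the list were weakly measured genes. Rps27l, a paralog of Rps27 that p53 induces, had the highest fold change at day 8 (0.52, SE 0.35) and 0.38 (SE 0.34) at day 15. Its level ran from 0 to 37.0 CPM in sham and 17.9 to 43.8 CPM in ligated libraries at day 8. Rpl22l1, the paralog of Rpl22, had the highest fold change at day 15 (0.43, SE 0.32) and -0.17 (SE 0.31) at day 8, while Rpl22 itself had 0.11 and 0.18 (SE 0.20 each). Rpl7l1 had -0.33 and -0.28 (SE 0.28 each) at levels of 15.9 to 74.1 CPM, and Rpl27 had -0.12 and -0.17 (SE 0.37 and 0.38). All of these had edgeR adjusted p values of 0.526 or more, and each group's range overlapped that of its control.

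Rpl5 and Rpl11 bind 5S ribosomal RNA and, when free of the ribosome, restrain Mdm2. Rpl5 had 128 to 269 CPM after sham surgery and 190 to 322 CPM after ligation at day 8 (log2 fold change 0.33, SE 0.20, edgeR adjusted p = 0.464). At day 15 it had 238 to 393 and 200 to 403 CPM (-0.02, SE 0.20). Rpl11 had -0.18 (SE 0.16) at day 8 and 0.05 (SE 0.16) at day 15. Rpl39, a small protein of the peptide exit tunnel, had 0.20 (SE 0.17) and 0.32 (SE 0.17). None of these passed the test with edgeR.

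The 3 stalk genes differed little on the TMM scale. Rplp0 had 0.03 (SE 0.11) at day 8 and 0.16 (SE 0.11) at day 15, Rplp1 -0.14 (SE 0.12) and -0.01 (SE 0.12), and Rplp2 -0.06 and 0.17 (SE 0.15 each). Rpsa had -0.05 and 0.19 (SE 0.12 each). Rps27 had -0.18 and 0.16 (SE 0.15 each). With library totals the day 15 values turned to -0.04 for Rplp0, -0.03 for Rplp2, -0.0025 for Rpsa and -0.05 for Rps27, and those of day 8 became -0.28 for Rplp0 and -0.25 for Rps6. Rpl27a, at -0.15 (SE 0.15) the third lowest of day 15, had 615 to 979 CPM after sham surgery and 560 to 927 CPM after ligation.

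Averaged over both days, edgeR called 0 of 81 members (10.6% of all tested genes) and DESeq2 called 0 (11.4% of all tested genes). At an unadjusted p under 0.05, Rpl14 and Rpl39 were higher and Rps15 was lower, beside 13.8% higher and 10.4% lower of all tested genes. With library totals, 24 members were called lower, 20 large and 4 small subunit genes, when 15.1% of all tested genes were called lower. Rps15 had the smallest adjusted p under that scaling (log2 fold change -0.48, SE 0.10, edgeR adjusted p = 0.00223).

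The difference of the ligation effect between the days was tested directly. edgeR called 0 of 81 members and 0.0% of all tested genes, and DESeq2 called 0 members and 0.0243% of all tested genes. At an unadjusted p under 0.05 there were 2 members, Rpl10a (0.56, SE 0.19) and Rps27a (0.39, SE 0.18), where 2.12% of all tested genes were higher at that level. In sign, 48 of 81 members were lower at day 8 and higher at day 15, 17 were higher at both, 12 lower at both and 4 the other way round. The comparisons at the 2 days use different animals, and the median of the differences was 0.17 beside -0.04 for all tested genes.

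The remaining comparison is between days within each surgery. Among ligated animals the members' share was 4.58% ± 0.403 at day 8 and 5.52% ± 0.706 at day 15, with overlap. On the TMM scale 80 of 81 members had a positive fold change for day 15 over day 8 (median 0.23, 0.23 in each subunit), while the median of all tested genes was -0.04. edgeR called 1 member higher, Rps27a, where it called 2.26% of all tested genes higher. At an unadjusted p under 0.05 there were 12 members, all higher, beside 7.49% of all tested genes. DESeq2 called 3 members higher (Rps27a, Rplp0 and Rpl36a) and 2.07% of all tested genes. Among sham animals the median was 0.03 with 54 of 81 above 0, and edgeR called 0 members (0.0% of all tested genes) as did DESeq2 (0.122%). At an unadjusted p under 0.05 there was 1 member, Rpl5 (0.55, SE 0.20, edgeR adjusted p = 0.343), beside 4.64% of all tested genes that were higher.

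Rps27a encodes ubiquitin fused to a small subunit protein, so that each translated copy yields both. Its level was 345 to 555 CPM in ligated animals at day 8 (median 479) and 577 to 742 CPM at day 15 (median 651), without overlap. Sham animals had 510 to 747 CPM at day 8 (median 625) and 502 to 720 CPM at day 15 (median 603). In ligated animals it rose by 0.43 on the log2 scale from day 8 to day 15 (SE 0.13, edgeR adjusted p = 0.0498). That call was lost in 10 of 12 fits that left out 1 library (adjusted p between 0.0367 and 0.126), and with library totals or without a filter on low counts. The log2 fold change was 0.40 to 0.47 in those 12 fits, 0.50 with library totals and 0.36 without the filter.

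**Figure D5:**
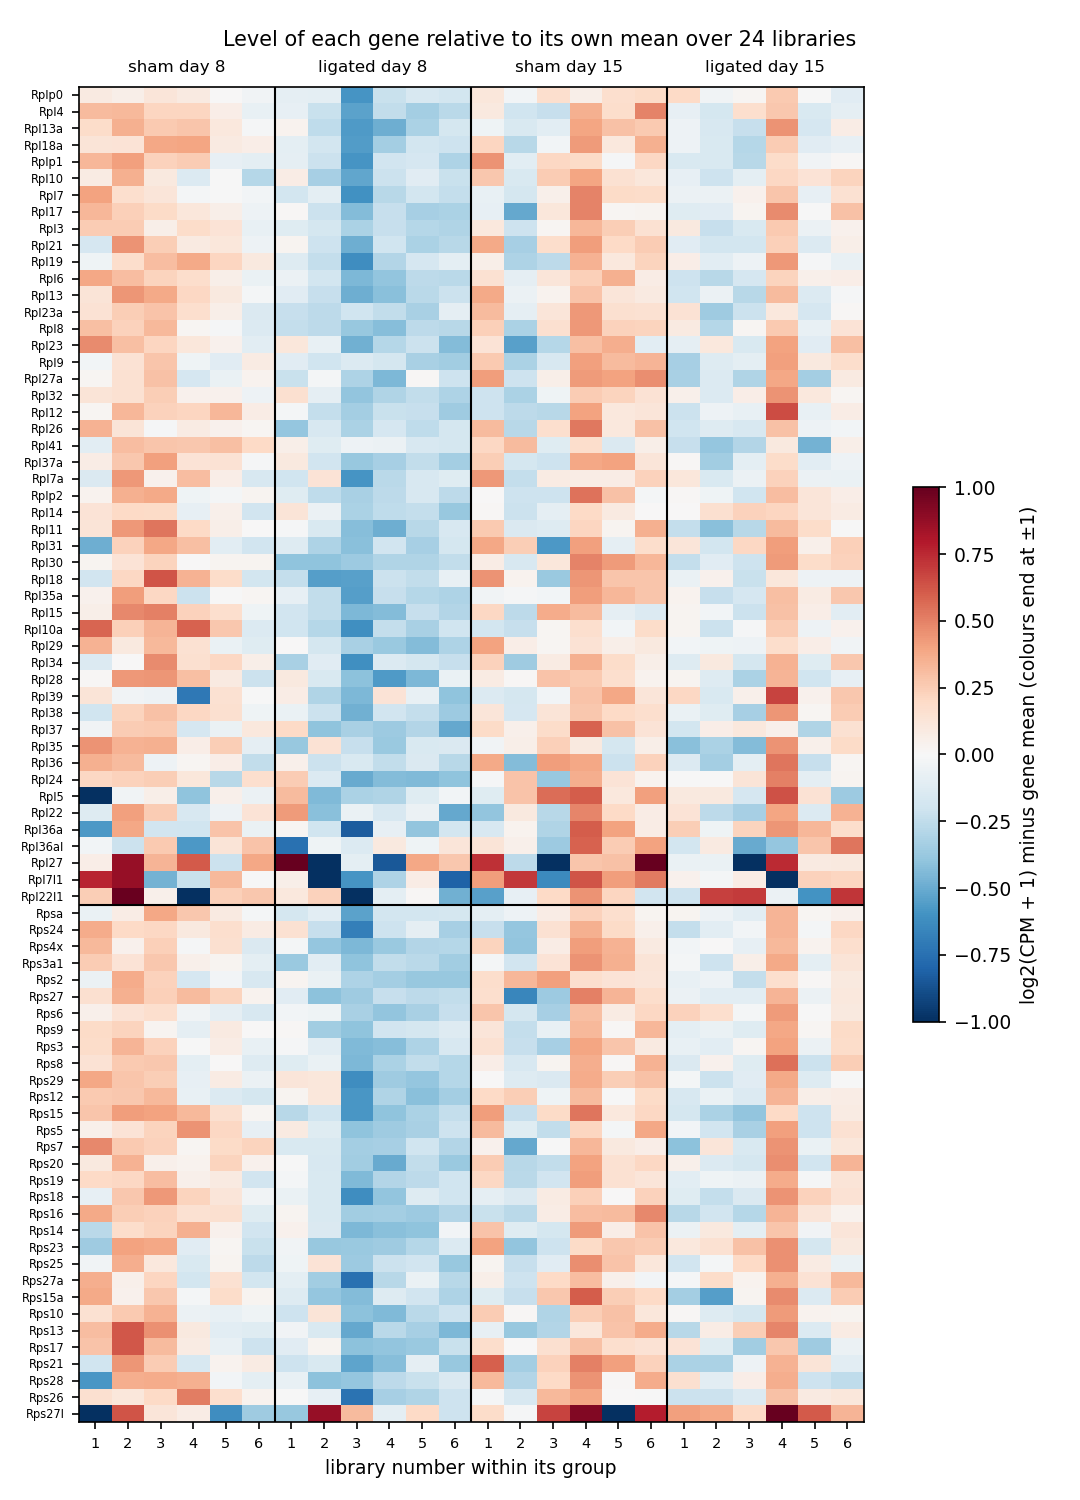
Level of 80 of the 81 tested members in each of 24 libraries, as log2(CPM + 1) of library totals minus the gene's mean over all libraries; large subunit genes are above and small subunit genes below the horizontal line, each in order of level. The ligated libraries of day 8 are blue across most genes, library 3 the most and library 1 the least, whereas the ligated libraries of day 15 range from pale blue to the red column of library 4.

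The spread of the members between animals of a group was small beside that of other genes. The biological coefficient of variation that edgeR estimated had a median of 0.192 over the 81 members (0.189 large, 0.193 small), against 0.241 over all tested genes. Members also have higher counts than most genes, and no adjustment for that was made. The highest values were those of Rpl27 (0.398), Rpl22l1 (0.274), Rpl22 (0.240) and Rpl5 (0.228). The median standard error of a member's log2 fold change was 0.146 at both days.

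Other genes of translation were tested as well. Of 21 tested translation partners, elongation and initiation factors and further messengers known to carry a TOP tract, edgeR and DESeq2 called 0 at day 8, where 2 were higher in edgeR at an unadjusted p under 0.05. At day 15 DESeq2 called 2 higher and edgeR 1, Eif3e (log2 fold change 0.79, SE 0.20, adjusted p = 0.0160), a subunit of the initiation factor eIF3, where edgeR called 4.55% of all tested genes. Averaged over days it called 3 of the 21, beside 10.6% of all tested genes. Tpt1, a TOP messenger that encodes a growth-related protein, rose (0.41, SE 0.10, adjusted p = 0.0117), as did Eif3e (0.49, SE 0.14), and Eef1g, a subunit of an elongation factor complex, fell (-0.32, SE 0.11, adjusted p = 0.0491). Their summed share at day 8 was 2.04% ± 0.124 in sham and 1.70% ± 0.202 in ligated libraries, with overlap.

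Of 46 genes for ribosome assembly, such as Fbl, Ncl and Npm1 of the nucleolus, 12 passed the filter and edgeR and DESeq2 called 0 at either day, with 0 at an unadjusted p under 0.05 at day 8 and 1 higher at day 15. Their share at day 8 was 0.119% ± 0.00710 in sham and 0.0897% ± 0.0127 in ligated libraries, without overlap. Of 18 regulators of TOP messengers 8 were tested and 0 were called at either day by edgeR or DESeq2 (0 and 1 at an unadjusted p under 0.05 in edgeR). Larp1 had 0.13 (SE 0.25) at day 8 and -0.55 (SE 0.26, adjusted p = 0.247) at day 15. Ribosomal proteins of the mitochondrion, a separate ribosome, were scarce: 7 of 78 passed the filter. Among these, edgeR called Mrpl33 higher on average over days (1.02, SE 0.28, adjusted p = 0.0165), and at either day alone edgeR and DESeq2 called 0, with 1 and 2 at an unadjusted p under 0.05 in edgeR.

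Markers of other cell types moved with the groups as well. The hepatocyte markers took 0.0510% to 0.471% after ligation at day 8; the third library was the highest, and the other 5 had a mean of 0.0875% ± 0.0207, against 0.151% ± 0.158 for all 6. At day 15 they took 1.08% ± 0.827. Every ligated library lay above every sham library at both days. Of the 20 markers 17 were tested, and 14 and 17 were called higher with edgeR. Of all tested genes edgeR called 3.14% at day 8 and 4.55% at day 15, either way. Lymphocyte markers took 0.0479% ± 0.0107 of sham and 0.0259% ± 0.00266 of ligated counts at day 8, without overlap. Of these 12 genes 3 were tested, and edgeR and DESeq2 called 0 at that day (2 lower at an unadjusted p under 0.05). At day 15 edgeR called 0 and DESeq2 1 lower, with 3 lower at an unadjusted p under 0.05, and averaged over days both tools called all 3 lower. In that average edgeR called 10.6% and DESeq2 11.4% of all tested genes, either way.

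Of all 4112 tested genes, edgeR called 114 higher and 15 lower at day 8. Of 8 tested neutrophil markers, all had a positive fold change at that day (median 1.89) and edgeR called 3 higher. Their share was 0.0585% ± 0.0492 in sham and 0.128% ± 0.0553 in ligated libraries, with overlap. Of 5 tested monocyte and macrophage markers edgeR called 2 higher at day 8 (shares 0.0585% ± 0.0124 and 0.0837% ± 0.0340, with overlap), and of 5 tested markers of striated muscle it called 2 lower (0.0295% ± 0.0138 and 0.0115% ± 0.00726, with overlap). Platelet markers took 0.472% ± 0.322 of sham and 0.579% ± 0.455 of ligated counts at day 8, with overlap; all 16 tested had a positive fold change (median 0.47), and edgeR and DESeq2 called 0, with 0 at an unadjusted p under 0.05. Of 8 tested endothelial markers both tools likewise called 0 at day 8, with 0 at an unadjusted p under 0.05. Whether the source of the vesicles' RNA had a part in the members' lower share at day 8 was not tested.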

How the data were processed

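Plasma vesicle RNA of 24 mice was sequenced (4 groups of 6, from the titles; the replicates are separate animals). The deposited values are expected counts for each gene, all of them whole numbers. The authors used STAR and RSEM, per the submitters' processing notes, which name the build hg38 although the identifiers are mouse Ensembl genes; versions, and who rounded the counts, are not given. Gene positions and transcript lengths are from GENCODE M21 and promoters from RefSeq (GRCm38.p6). The filterByExpr filter (at least 10 counts in the smallest group's number of libraries, scaled by depth, and 15 in all) left 4112 genes, among them 81 of 87 members; Rps19bp1, Rps27rt, Rpl3l, Rpl6l, Rpl10l and Rpl39l did not pass. Counts were scaled by TMM and tested with edgeR 4.0.16 (R 4.3.3, quasi-likelihood F-test, 4 group means, Benjamini-Hochberg over all tested genes, threshold 0.05); the code was tested on simulated data. DESeq2 1.42.0 was an alternative. CPM without further mention is scaled to the library's total in the table. Shares, ratios and list medians were described without a test. Intervals are exact Clopper-Pearson and cover counting error only, as reads carry no molecular identifiers. Named genes were those called, the 3 lowest and 3 highest fold changes of each day, the 4 most abundant of each subunit, and a set list; some items are not reported here. Members and lists were chosen with earlier results of these data known. Libraries with the same number deviated together at day 8 (correlation 0.165 to 0.327 for 6 numbers) and not at day 15 (-0.031 to 0.113). The labels state no pairing. At day 8 these correlations alone were taken to pair libraries, and those between libraries of different number were not computed. Libraries numbered 4 to 6 of day 8 were deeper in both groups, and the part of depth in these correlations was not tested.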

Additional observations from a re-analysis of the deposited data

Results flagged for a closer look

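Screened were 35 items in 4 groups of 6 libraries, 140 groups in all. They were the CPM of the tested named members, the members' share, the share of each subunit and the large to small ratio. In 9 groups a library lay far from the other 5 (gap over range above Dixon's 95% value of 0.625), all of them for the CPM of single members. Chance flags about 1 in 20 groups. The third ligated library of day 8 was the lowest of its group for Rpl10a (286 CPM, the others 349 to 383), Rplp0 (1039 CPM, the others 1340 to 1471) and Rpsa (1151 CPM, the others 1463 to 1543). The first ligated library of day 8 was the highest for Rps4x (1221 CPM, the others 904 to 1013) and the lowest for Rpl36al (53.6 CPM, the others 82.2 to 98.1). The fourth ligated library of day 15 was the highest for Rpsa (2104 CPM, the others 1544 to 1718) and the lowest for Rpl7l1 (15.9 CPM, the others 39.5 to 47.2). The third sham library of day 15 was the lowest for Rpl7l1 (25.5 CPM, the others 53.8 to 66.2), and the fourth sham library of day 8 for Rpl39 (240.4 CPM, the others 381 to 441).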

How the results depend on the processing

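Counts of members called at day 8, at day 15 and averaged over days remained 0 with DESeq2, its size factors, TMM without Lars2 and hemoglobin genes, no filter on low counts, and each library left out in turn. With a replicate block (day by number) they were 0 as well, with medians of -0.09 at day 8 and 0.11 at day 15. Library totals in place of TMM gave 6 called members at day 8, 24 averaged over days and 0 for day 15 against day 8 in ligated animals, and medians of -0.40 at day 8 and -0.093 at day 15. The 1 call for day 15 against day 8 in ligated animals became 3 with DESeq2 and 0 without the filter, and 0 to 1 with a library left out. Leaving out 1 library moved the median at day 8 between -0.15 and -0.03 and at day 15 between 0.07 and 0.16. Leaving Lars2 out of the total changed the day 8 difference in share to -3.26 points (large -1.82, small -1.44). Leaving out hemoglobin genes too gave -2.84 (large -1.59, small -1.25) at day 8 and -1.43 (large -0.893, small -0.542) at day 15. Small fold changes turned sign. With library totals, Rplp0 at day 8 was -0.28 and at day 15 -0.040, Rplp2 at day 15 -0.033, Rpsa at day 15 -0.0025, Rps6 at day 8 -0.25, Rps27 at day 15 -0.045, Rpl22 -0.22 and -0.0038 at the 2 days, and Rpl39 at day 8 -0.10. For Rplp0 at day 8, no filter gave -0.0084 and DESeq2 -0.0012. In day 8 libraries 4 to 6 alone, Rplp0 was -0.069, Rps6 -0.081, Rpl22 -0.091 and Rpl22l1 0.013. With 1 library left out, ranges at day 8 were -0.0082 to 0.061 for Rplp0, -0.10 to 0.0037 for Rpsa, -0.0087 to 0.14 for Rps6, -0.024 to 0.20 for Rpl22 and -0.40 to 0.010 for Rpl22l1. At day 15 they were -0.049 to 0.023 for Rplp1, -0.13 to 0.057 for Rpl5 and -0.34 to 0.15 for Rpl27. The cause of these changes was not tested beyond the scaling itself. Paralogs and the weakest members are limited by depth, with 256 counts in all for Rps27l.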
